A study of Mus musculus with 30 samples.

Results

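The 10 genes described here are those through which the acinar cells of a salivary gland make fluid and by which these cells are known: Aqp5, Slc12a2, Ano1, Kcnn4, Atp1b1, Bhlha15, Lpo, Pip, Rab3d and Folr1. They were taken by name from a table of array intensities, with earlier results of these data known. All 10 were among the 12999 genes tested, of 18193 genes that had a probe set. The samples were salivary glands of female mice of the strain NOD.H-2h4, in which autoimmune inflammation of this organ arises spontaneously. Every mouse had 1 intraperitoneal antibody dose of 20 mg/kg when 4 weeks old, either anti-CD40L or a human IgG1 isotype control, and no untreated mice were analysed here. CD40L is a T cell protein through which T cells help B cells. Glands were collected at weeks 8, 16 and 24, which are 4, 12 and 20 weeks after the dose, and each of the 6 groups held 5 arrays. The labels call these biological replicates of total salivary gland, and do not say which of the salivary glands were taken or whether dietary iodide was given.

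A salivary acinar cell makes its primary fluid by moving chloride. The sodium pump, of which Atp1b1 is a beta subunit, sets up the sodium gradient, the cotransporter Slc12a2 brings chloride in with sodium and potassium across the basolateral membrane, and a rise in calcium opens the apical chloride channel Ano1 and the potassium channel Kcnn4. Sodium follows chloride between the cells, and water follows through the apical water channel Aqp5. Bhlha15, also called Mist1, is the transcription factor that sets up the secretory machinery of serous cells. Rab3d is a small GTPase of secretory granules, Lpo (lactoperoxidase) and Pip (prolactin-inducible protein) are secreted into saliva, and Folr1 is a folate receptor of epithelial surfaces. Because the glands were measured whole, fewer acinar cells and less RNA per acinar cell cannot be told apart.

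Bhlha15 protein binds E-box sequences, so the 250 bases before the start of each member were searched for CAGCTG, for its relative CATATG and for a further E-box, CACGTG, each of which reads the same on both strands. RefSeq promoters of build GRCm38.p6 were on hand for 8 of the 10 members, all but Slc12a2 and Folr1. Aqp5 and Kcnn4 each held 1 match, a CACGTG 87 and 133 bases before the start, and 6 members held none. Of 32851 RefSeq promoters 13% held the first, 3.46% the second, 6.02% CACGTG and 21.2% any of them, so 2 of 8 is near the background. The promoters with a match, and that of Bhlha15 itself, are shown 5′ to 3′ with the match in capitals. They lie on the plus strand at chr15:99590778-99591027 (Aqp5), chr7:24370013-24370262 (Kcnn4) and chr5:144190036-144190285 (Bhlha15).
Aqp5: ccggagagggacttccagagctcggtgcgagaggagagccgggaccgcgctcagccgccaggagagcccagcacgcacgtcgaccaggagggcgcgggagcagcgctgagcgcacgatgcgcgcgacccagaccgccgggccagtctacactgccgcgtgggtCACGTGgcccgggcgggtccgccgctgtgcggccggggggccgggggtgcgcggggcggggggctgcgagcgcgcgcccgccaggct
Kcnn4: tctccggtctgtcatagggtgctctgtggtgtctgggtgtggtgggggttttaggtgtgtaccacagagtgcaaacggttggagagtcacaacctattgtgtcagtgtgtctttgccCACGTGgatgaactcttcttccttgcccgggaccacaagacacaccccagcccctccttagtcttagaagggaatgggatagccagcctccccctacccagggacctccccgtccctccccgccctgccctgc
Bhlha15: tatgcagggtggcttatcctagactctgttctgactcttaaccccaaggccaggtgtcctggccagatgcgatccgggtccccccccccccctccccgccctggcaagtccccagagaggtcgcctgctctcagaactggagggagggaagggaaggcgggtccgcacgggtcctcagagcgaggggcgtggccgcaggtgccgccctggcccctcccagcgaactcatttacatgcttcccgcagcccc
A match describes these letters and is not evidence that a factor binds there.

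All 10 genes were well expressed, each above the median of its array on all 30 arrays. Values are log2 intensities, so a difference of 1 is a doubling, and errors beside differences are standard errors from a limma model of all 30 arrays. A gene is said to rise or fall where its Benjamini-Hochberg adjusted p in that model, over 12999 genes, was under 0.05. Where 2 groups are said not to overlap, this describes the values only. The share of all genes without overlap was not counted. Products of the granular ducts, which mark the submandibular gland, averaged between 12.7 and 13.1 in every group, so submandibular tissue was present in each. The parotid share was uneven: Amy1, an amylase of parotid cells, lay between 6.58 and 13.7 on the arrays and between 13.2 and 13.7 in the 5 treated glands of week 8. RNA quality was uneven as well, measured as the 3′-to-5′ gap, the log2 signal at the 3′ end less that at the 5′ end of 2 control transcripts (Gapdh and beta-actin, averaged), which grows as RNA degrades. Control glands had a mean gap of 0.566 at week 8, 0.291 at week 16 and 0.406 at week 24, and treated glands one of 0.369, 0.260 and 0.20. The 3 arrays over 0.6, control replicates 3 and 4 of week 8 and 1 of week 24, also had the lowest median correlation with the other arrays. Results below that move with this measure are given with it.

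**Figure D1:**
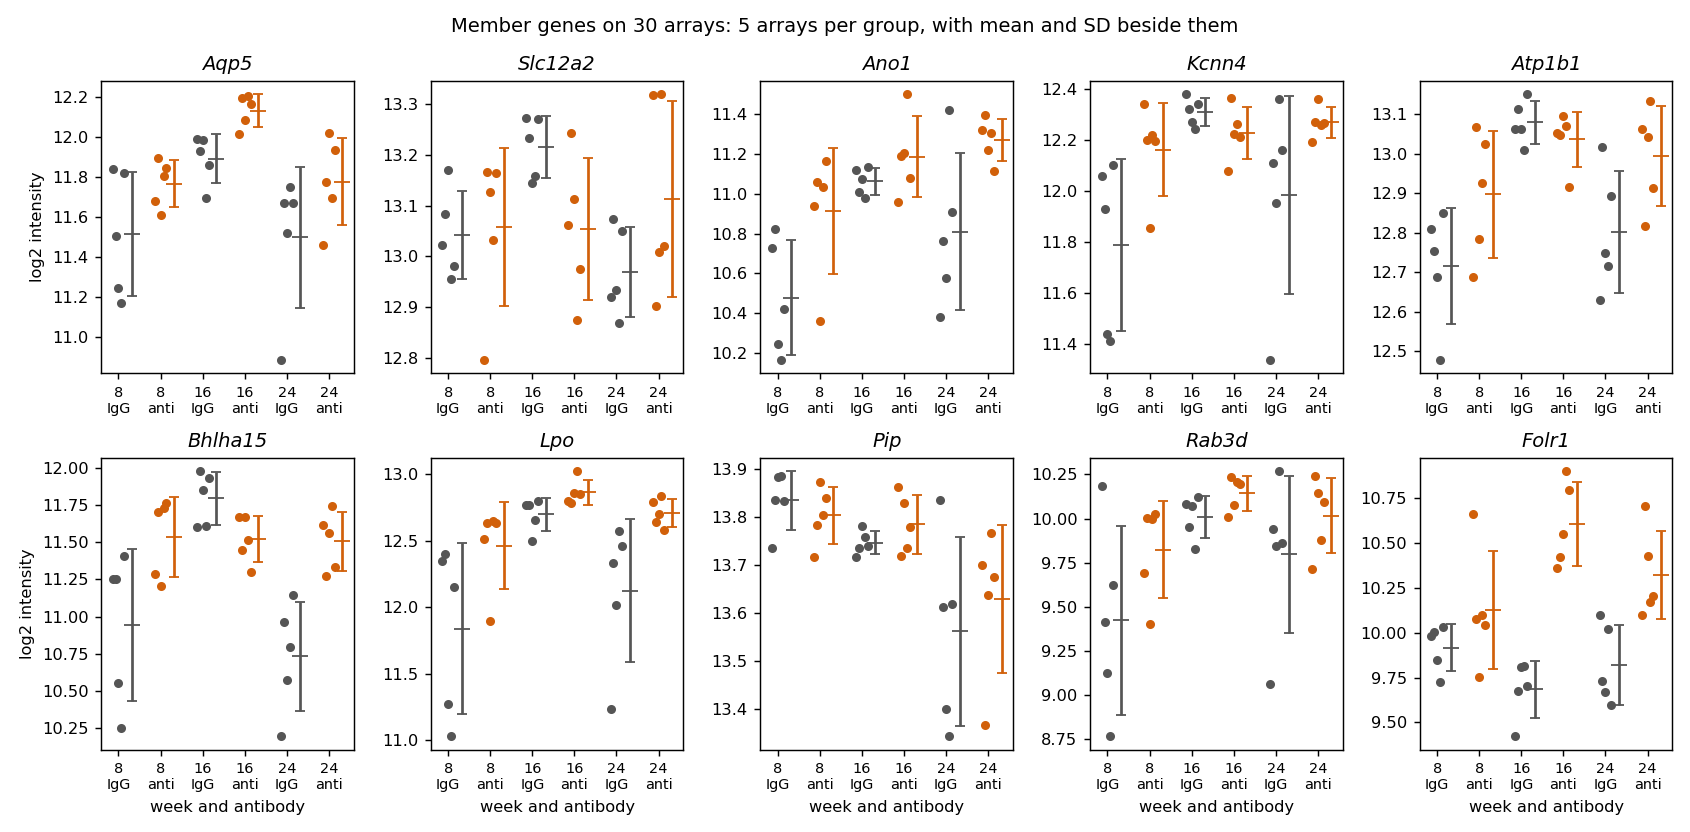
Log2 intensity (y axis) of each of the 10 genes on all 30 arrays, by week and antibody (x axis; IgG, grey; anti-CD40L, orange), with mean and SD of 5 arrays at the right of each group; y axes differ between panels and do not start at 0. Folr1 is higher in treated glands at week 16, and the low points of Lpo, Kcnn4 and Rab3d in controls of weeks 8 and 24 are shared by the same arrays.

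Folr1 was the member with the clearest treatment difference. In controls of week 16 its log2 intensity was 9.42, 9.68, 9.81, 9.81 and 9.70, and in treated glands 10.36, 10.42, 10.55, 10.90 and 10.79. Every treated gland lay above every control. The means were 10.61 ± 0.23 and 9.68 ± 0.16 (SD, n = 5), a rise of 0.92 ± 0.14 or 1.89-fold (95% interval 0.63 to 1.21, limma adjusted p = 0.000449). At week 24 the controls were 10.10, 9.73, 9.67, 10.02 and 9.59 and the treated glands 10.10, 10.71, 10.43, 10.17 and 10.20. The lowest treated gland lay just above the highest control, and the rise was 0.50 ± 0.14 (95% interval 0.21 to 0.79, limma adjusted p = 0.0305). At week 8 the controls, 9.98, 10.003, 9.85, 9.72 and 10.03, overlapped with the treated glands, 10.66, 10.08, 9.75, 10.10 and 10.04, and the difference of 0.21 ± 0.14 did not pass (limma adjusted p = 0.482). The treatment difference was larger at week 16 than at week 8 by 0.71 ± 0.20, which did not pass over all genes (limma unadjusted p = 0.00145, adjusted p = 0.115). Within treated glands Folr1 rose from week 8 to week 16 by 0.48 ± 0.14 (limma adjusted p = 0.0117), while controls gave -0.23 ± 0.14 (limma adjusted p = 0.177). The week 16 treatment call held with the 3′-to-5′ gap as a covariate (0.91, limma adjusted p = 0.000546) and without any 1 of the 10 arrays. The week 24 call did not hold with the covariate (0.42, limma adjusted p = 0.341) and was lost without any of 5 arrays, control replicate 3 or 5 or anti-CD40L replicate 2, 3 or 4 (limma adjusted p = 0.0741, 0.0613, 0.0705, 0.0640 and 0.0501).

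Bhlha15, the acinar transcription factor, was the other member with a treatment call, at week 24. Controls of week 24 were at 10.20, 10.96, 10.57, 10.80 and 11.14, and treated glands at 11.62, 11.27, 11.56, 11.75 and 11.34. The groups did not overlap, and the rise was 0.77 ± 0.19 or 1.71-fold (95% interval 0.39 to 1.15, limma adjusted p = 0.0134). At week 16 the order was the other way, with controls at 11.60, 11.98, 11.86, 11.61 and 11.93 and treated glands at 11.67, 11.45, 11.67, 11.52 and 11.30. These groups overlapped and the difference of -0.27 ± 0.19 did not pass (limma adjusted p = 0.548). At week 8 the controls spread widely, 11.26, 11.26, 10.56, 10.25 and 11.40, below or among treated glands of 11.29, 11.70, 11.20, 11.73 and 11.76, and the difference of 0.59 ± 0.19 did not pass (limma adjusted p = 0.203). The 4 group means apart from the controls of weeks 8 and 24 lay between 11.51 and 11.80, those 2 at 10.94 and 10.73. The change of the treatment difference from week 8 to week 16 was -0.87 ± 0.26 (limma adjusted p = 0.14). The week 24 rise was 0.64 without control replicate 1, which has a 3′-to-5′ gap over 0.6, and lost its call (limma adjusted p = 0.0656). Leaving out all 3 arrays over 0.6, chosen after seeing the data, gave the same 0.64 with a call (limma adjusted p = 0.00856). With the 3′-to-5′ gap as a covariate it was 0.32 ± 0.14 and did not pass (limma adjusted p = 0.415). The dimmer of its 2 probe sets gave 0.41 at week 24 (limma adjusted p = 0.15).

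Of the transporters and channels, none passed in any treatment comparison. At week 8, where 0 of the 10 members and 0.0692% of all genes were called, Ano1 was higher by 0.44 ± 0.16, Kcnn4 by 0.38 ± 0.14, Aqp5 by 0.25 ± 0.14, Atp1b1 by 0.18 ± 0.09 and Slc12a2 by 0.01 ± 0.09 in treated glands (limma adjusted p from 0.239 to 0.955). At week 16, where 1 of 10 members was called against 1.88% of all genes, the differences lay between -0.16 for Slc12a2 and 0.24 for Aqp5 (limma adjusted p from 0.426 to 0.895). Aqp5 then read 11.99, 11.93, 11.99, 11.70 and 11.86 in controls and 12.02, 12.20, 12.09, 12.21 and 12.17 after treatment. The call failed (limma adjusted p = 0.462), although the groups did not overlap, and how common this was among all genes was not counted. At week 24, where 2 of 10 members were called against 9.45% of all genes, Ano1 was higher by 0.46 ± 0.16 (limma adjusted p = 0.0607) and the other 4 by 0.14 to 0.29 (limma adjusted p from 0.143 to 0.284). Ano1 read 10.38, 10.76, 10.57, 11.42 and 10.91 in controls of week 24 and 11.32, 11.39, 11.22, 11.30 and 11.11 in treated glands. A control, replicate 4, was the highest of all 10 arrays, and without it the Ano1 difference of 0.61 passed (limma adjusted p = 0.00822), as did that of Lpo (0.70, limma adjusted p = 0.0446). Ano1 and Kcnn4 had Pearson r = -0.819 and -0.834 with the 3′-to-5′ gap over the 30 arrays. With the gap as a covariate 0 of 10 members passed at weeks 8 and 24, where 0.0231% and 0.177% of all genes did.

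Among the granule gene and the secreted products none passed in any treatment comparison. Lpo had groups that did not overlap at week 24, which is not a call. Its controls were 11.23, 12.33, 12.01, 12.57 and 12.46 and its treated glands 12.79, 12.64, 12.70, 12.83 and 12.58, a difference of 0.58 ± 0.22 (limma adjusted p = 0.0874). The treated values lay close together, while control replicate 1, whose 3′-to-5′ gap is over 0.6, was far below the rest. Over the 30 arrays Lpo had Pearson r = -0.879 with that gap. At week 8 Lpo was higher by 0.62 ± 0.22 (limma adjusted p = 0.238) and at week 16 by 0.17 ± 0.22 (limma adjusted p = 0.826). Rab3d differed by 0.40 ± 0.19, 0.13 ± 0.19 and 0.22 ± 0.19 at the 3 weeks (limma adjusted p from 0.32 to 0.84). Pip differed by -0.03 ± 0.08, 0.04 ± 0.08 and 0.07 ± 0.08 (limma adjusted p from 0.599 to 0.899), with 95% intervals that lie between -0.20 and 0.23.

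**Figure D2:**
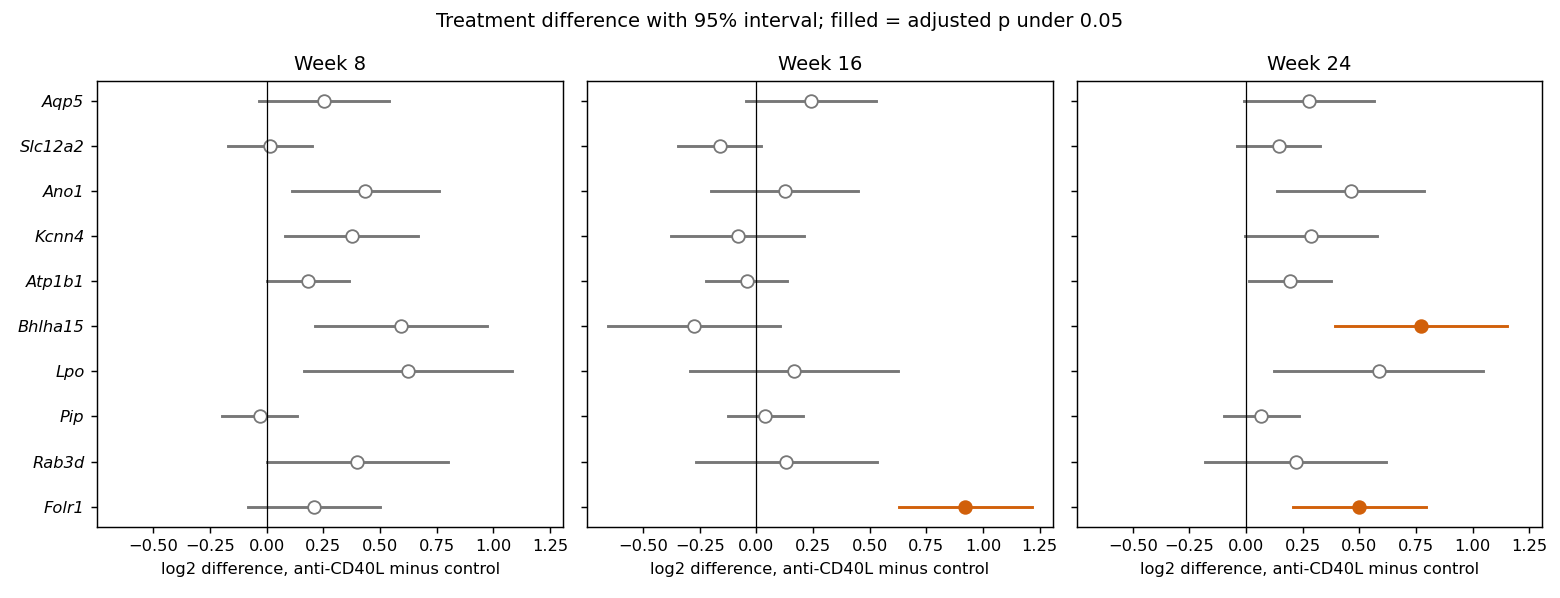
Difference in log2 intensity, anti-CD40L minus control (x axis), for the 10 genes (y axis) at weeks 8, 16 and 24, with 95% intervals from limma over 5 arrays per group; filled orange points passed at an adjusted p under 0.05. The calls are Folr1 at week 16 (0.92) and Folr1 (0.50) and Bhlha15 (0.77) at week 24, and the week 8 points lie above 0 for 9 of 10 genes without a call.

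As a group the members were above 0 in 9, 6 and 10 of 10 at weeks 8, 16 and 24, with median differences of 0.31, 0.08 and 0.28, beside 0.01, 0.02 and 0.03 over all genes, of which 51%, 53.6% and 54.2% were above 0. Beside this, the mean 3′-to-5′ gap was smaller in treated than in control glands at each week, at 0.369 against 0.566, 0.26 against 0.291 and 0.201 against 0.406. With the gap as a covariate 8, 6 and 7 of the 10 were above 0, and the medians were 0.05, 0.05 and 0.08. At week 8 the unadjusted limma p was under 0.05 for 6 members and for 2020 genes of all. The treatment difference did not change from week 8 to week 16 for any member by a limma adjusted p under 0.05 (0.146% of all genes did). Unadjusted, the limma p was under 0.05 there for 3 members, Kcnn4, Bhlha15 and Folr1, and for 1771 genes of all. From week 8 to week 24 no member changed by a limma adjusted p under 0.05 (0.00769% of all genes did). Unadjusted, 0 members and 759 genes of all were under 0.05. Weighting the arrays gave calls for Folr1 (0.78, limma adjusted p = 0.026) and Bhlha15 (-0.81, limma adjusted p = 0.0385) in the change from week 8 to week 16.

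Of the steps in age compared, all from week 8, the one with most calls among these genes was to week 16 in controls. There 7 of the 10 rose, against 46.5% of all genes called and 28.4% called higher: Bhlha15 by 0.85 ± 0.19, Lpo by 0.86 ± 0.22, Rab3d by 0.59 ± 0.19, Ano1 by 0.59 ± 0.16, Kcnn4 by 0.53 ± 0.14, Aqp5 by 0.38 ± 0.14 and Atp1b1 by 0.36 ± 0.09 (limma adjusted p from 0.000879 to 0.0297). The median over the 10 was 0.45, beside 0.06 over all genes. Lpo went from 12.35, 12.39, 11.27, 11.03 and 12.15 at week 8 to 12.76, 12.77, 12.50, 12.66 and 12.79 at week 16. The groups did not overlap, but replicates 3 and 4 of the week 8 controls were far below the other 3. Slc12a2 (0.17 ± 0.09), Pip (-0.09 ± 0.08) and Folr1 (-0.23 ± 0.14) did not pass (limma adjusted p = 0.11, 0.373 and 0.177). The dimmer 2 of 3 probe sets of Slc12a2 did, at 0.47 and 0.63 (limma adjusted p = 0.0158 and 0.0119), and quantile normalization called Slc12a2 higher (0.22, limma adjusted p = 0.0479) and Folr1 lower (-0.38, limma adjusted p = 0.037). The lowest probe sets of Atp1b1 and Rab3d gave -0.40 and -0.18 (limma adjusted p = 0.0602 and 0.278), at mean levels of 6.13 and 5.64.

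The 3′-to-5′ gap moved with these rises. Without the 3 arrays over 0.6, 4 of the 7 kept their call, Bhlha15 at 0.49, Lpo at 0.40, Kcnn4 at 0.28 and Atp1b1 at 0.28 (limma adjusted p from 0.016 to 0.0353), and Ano1 (0.41), Rab3d (0.27) and Aqp5 (0.17) did not pass. With that gap as a covariate 0 of 10 passed: Bhlha15 gave 0.24, Ano1 0.22, Atp1b1 0.15, Lpo 0.10, Kcnn4 0.09, Aqp5 0.0015 and Rab3d -0.03 (limma adjusted p from 0.322 to 0.996), while 4.77% of all genes did. The gap itself ranged from 0.359 to 0.859 in controls of week 8 and from 0.228 to 0.379 in those of week 16, so age and RNA quality cannot be fully told apart here. Leaving out single arrays, Aqp5 lost its call without any of 5 (limma adjusted p from 0.0531 to 0.111, week 8 replicates 3 and 4 and week 16 replicates 1, 2 and 3) and Rab3d without week 8 replicate 4 (0.42, limma adjusted p = 0.0788).

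**Figure D3:**
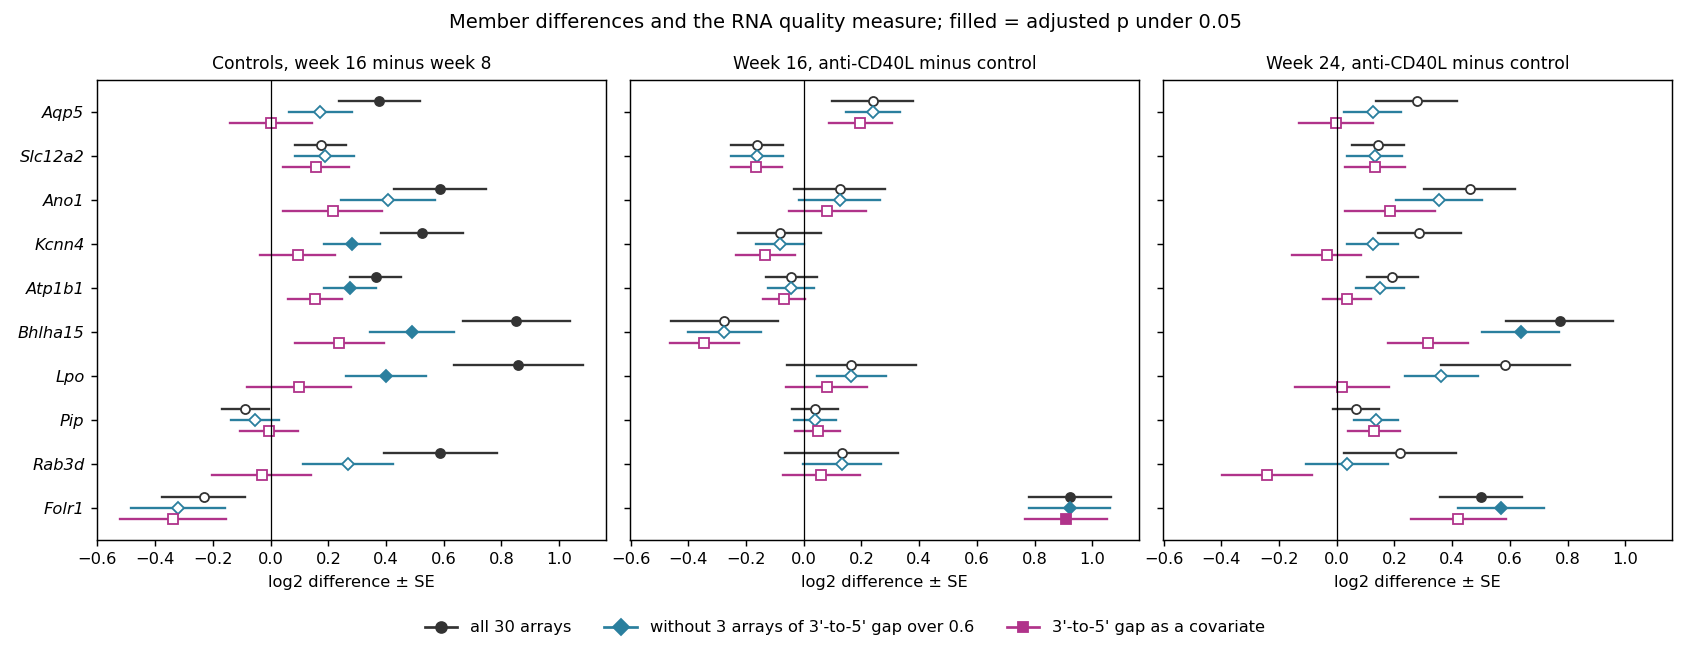
Log2 difference ± SE (x axis) for the 10 genes (y axis) in 3 comparisons, from all 30 arrays (circles), without the 3 arrays whose 3′-to-5′ gap is over 0.6 (diamonds) and with that gap as a covariate (squares); filled symbols passed at an adjusted p under 0.05. In controls 7, 4 and 0 genes pass under the 3 settings, beside 46.5%, 27.3% and 4.77% of all genes, while Folr1 at week 16 stays near 0.91 to 0.92.

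In treated glands the same step from week 8 to week 16 gave 2 calls of 10, against 36.5% of all genes: Aqp5 rose by 0.37 ± 0.14 (limma adjusted p = 0.0427), with all 5 arrays of week 16 above all of week 8, and Folr1 rose as given above. The Aqp5 call was lost without any of 7 arrays (limma adjusted p up to 0.105) and with the quality covariate (0.22, limma adjusted p = 0.165). Amy1 averaged 13.42 in treated glands of week 8 and 9.86 in those of week 16, so age and parotid share cannot be fully told apart here. With Amy1 as a covariate 1 of 10 members was called at this step, against 20.4% of all genes. Bhlha15 differed by -0.02 ± 0.19 (limma adjusted p = 0.951). Other probe sets of Rab3d rose by 0.56 and 0.80 (limma adjusted p = 0.00508 and 0.000793), against 0.32 ± 0.19 for the one used. From week 8 to week 24 only Pip passed in controls, falling by 0.27 ± 0.08 (limma adjusted p = 0.0284), against 12.5% of all genes. Pip read 13.73, 13.84, 13.88, 13.89 and 13.83 in controls of week 8 and 13.84, 13.61, 13.40, 13.34 and 13.62 at week 24, so 4 of 5 lay below all week 8 arrays. This call was lost without control replicates 3 or 4 of week 8 or 2, 3 or 4 of week 24 (limma adjusted p from 0.051 to 0.0808). Without week 24 replicate 1, 3 more members passed: Rab3d (0.56), Ano1 (0.44) and Kcnn4 (0.36; limma adjusted p from 0.0275 to 0.0427). Without week 8 replicate 1 Rab3d passed beside Pip (0.56, limma adjusted p = 0.0278). With the quality covariate Pip gave -0.22 (limma adjusted p = 0.123), and Bhlha15 was called lower at week 24 (-0.57, limma adjusted p = 0.0123). In treated glands 0 of 10 passed from week 8 to week 24, against 23.6% of all genes. The largest was Ano1, at 0.36 ± 0.16 (limma adjusted p = 0.0924). The dimmer Pip probe set differed in course from the bright one: in treated glands it rose by 0.67 to week 16 and fell by 0.70 to week 24 (limma adjusted p = 0.0312 and 0.0367).

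By level, Bhlha15, Kcnn4, Atp1b1 and Slc12a2 were highest in controls of week 16, and Aqp5, Lpo, Rab3d and Folr1 in treated glands of week 16. Ano1 was highest in treated glands of week 24 and Pip in controls of week 8. The lowest group was the controls of week 8 for Ano1, Kcnn4, Atp1b1, Lpo and Rab3d, those of week 24 for Aqp5, Slc12a2, Bhlha15 and Pip, and those of week 16 for Folr1. Among groups next to each other in order the ranges overlapped for all 10 genes, except between the first and second group of Aqp5. Over the 30 arrays Slc12a2 covered 0.52 and Aqp5 1.32 log2 units.

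Over the 30 arrays 7 of the members moved closely together. Aqp5, Ano1, Kcnn4, Atp1b1, Bhlha15, Lpo and Rab3d had pairwise Pearson r from 0.636 to 0.928, and from 0.368 to 0.908 after subtracting group means, as a description of arrays that share their RNA quality and tissue makeup. The same 7 had r from -0.692 (Aqp5) to -0.879 (Lpo) with the 3′-to-5′ gap, while 26.8% of all genes had r under -0.6. Folr1 (-0.38), Slc12a2 (-0.225) and Pip (0.319) followed it less. Slc12a2 and Folr1 ran against each other within groups (r = -0.743). The genes whose levels were most like those of each member were Slc35a2 for Aqp5 (r = 0.943), Ptprk for Slc12a2 (0.801), Aldh7a1 for Ano1 (0.916), Bscl2 and Vdac2 for Kcnn4 (0.955 each), Rab14 for Atp1b1 (0.95), Rap1gap for Bhlha15 (0.959), Slc25a39 for Lpo (0.972), Mucl1 for Pip (0.957), Tspan14 for Rab3d (0.96) and Gmds for Folr1 (0.771). The next most like were Atg9a and Rfng for Aqp5 (0.936 and 0.931), Vps54 and Slc38a2 for Slc12a2 (0.778 each), Ceacam1 and Sort1 for Ano1 (0.914 and 0.912), Nfix for Kcnn4 (0.946), Senp6 and Scamp1 for Atp1b1 (0.944 and 0.939), Isca1 and Ltbp3 for Bhlha15 (0.928 and 0.92), Plvap and Mast2 for Lpo (0.969 each), Scgb2b27 and Scgb1b27 for Pip (0.94 and 0.858), Klf5 and Rusf1 for Rab3d (0.957 and 0.953) and Uck2 and Mpzl1 for Folr1 (0.742 and 0.739).

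**Figure D4:**
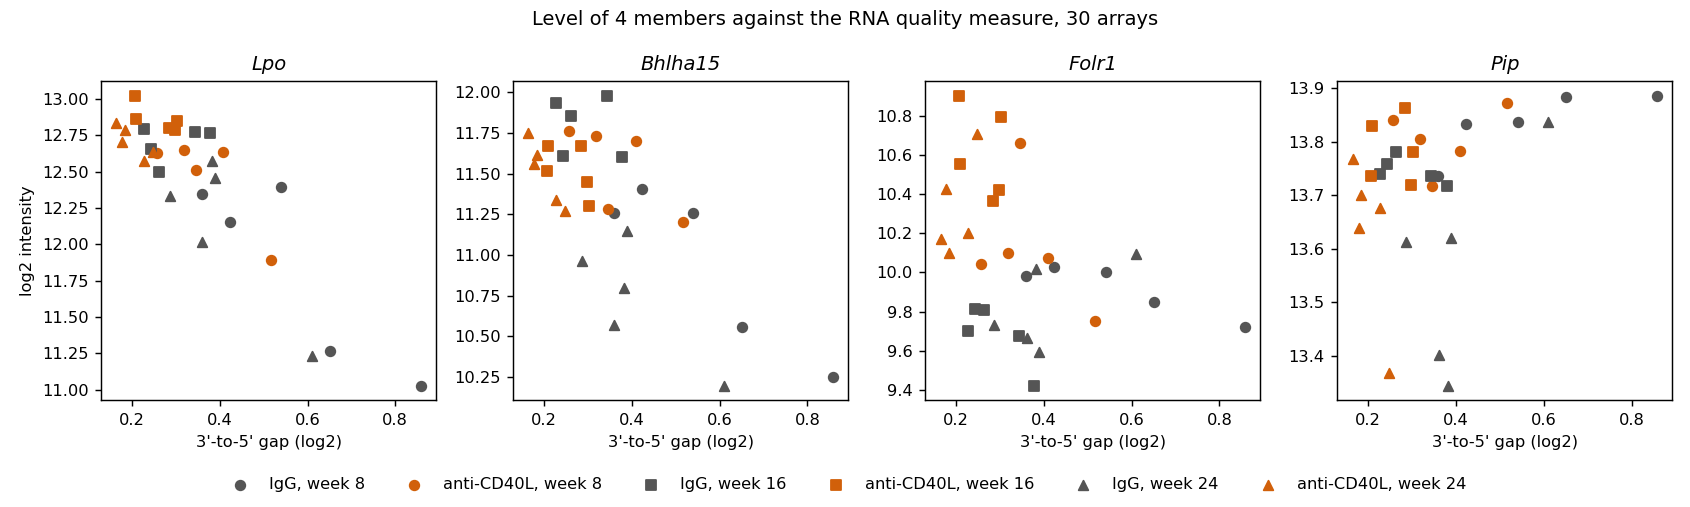
Log2 intensity (y axis) of Lpo, Bhlha15, Folr1 and Pip against the 3′-to-5′ gap in log2 units (x axis), 30 arrays by antibody (grey IgG, orange anti-CD40L) and week (circle 8, square 16, triangle 24). Lpo and Bhlha15 fall along the axis (r = -0.879 and -0.73), Folr1 less so (-0.38), and Pip has a positive r (0.319).

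Other genes of the secretory pathway were taken from 5 lists. Of 22 genes for receptors and calcium signalling 17 were tested; Chrm3, a muscarinic receptor, and Trpc1 were under the filter. None passed at week 8 or 16, where the largest values were for Orai1, a store-operated calcium channel (0.73 ± 0.30, limma adjusted p = 0.262, and -0.24 ± 0.30, limma adjusted p = 0.805), the calcium pump Atp2a2 at week 8 (0.48 ± 0.18, limma adjusted p = 0.249) and Atp2b1 at week 16 (0.19 ± 0.13, limma adjusted p = 0.558). At week 24 3 of 17 rose, where 9.45% of all genes were called and 5.96% called higher: Gnaq (0.75 ± 0.19, limma adjusted p = 0.0171) and Gna11 (0.46 ± 0.13, limma adjusted p = 0.0241), the G proteins that link muscarinic receptors to phospholipase C, and Atp2a2 (0.61 ± 0.18, limma adjusted p = 0.0373). All 5 treated arrays lay above all controls for each of the 3. They were picked by their call on these same arrays, so this separation adds no support. The share of all genes separated in this way was not counted. The list's median was 0.13, beside 0.03 over all genes.

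Of 22 further transport genes tested, 2 rose at week 24, the volume-regulated channel subunit Lrrc8a (0.66 ± 0.19, limma adjusted p = 0.0286) and Ano6 (0.55 ± 0.15, limma adjusted p = 0.0261), a relative of Ano1, and the list's median was 0.21. For this list and the granule traffic genes the count was near the 9.45% of all genes called. At the earlier weeks none passed. Kcne1, a potassium channel subunit (-0.67 ± 0.73, limma adjusted p = 0.684), and Lrrc8a (0.59 ± 0.19, limma adjusted p = 0.203) had the largest values at week 8, and Slc26a6, an anion exchanger (0.49 ± 0.29, limma adjusted p = 0.479), and Atp1b3, another sodium pump beta subunit (0.38 ± 0.13, limma adjusted p = 0.131), at week 16. Of 20 granule traffic genes 2 changed at week 24: Myo5c, a myosin of secretory vesicles, rose by 1.03 ± 0.33 (limma adjusted p = 0.047) and Unc13d, a priming factor of exocytosis, fell by 0.36 ± 0.11 (limma adjusted p = 0.0471). Before that none passed, the largest being Myo5c (0.40 ± 0.33, limma adjusted p = 0.567) and Scamp1 (0.39 ± 0.18, limma adjusted p = 0.306) at week 8 and Syt7 (0.43 ± 0.58, limma adjusted p = 0.825) and Rab27b (0.43 ± 0.21, limma adjusted p = 0.358) at week 16. Rab27b is a granule GTPase like Rab3d.

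The list of acinar transcription factors and endoplasmic reticulum genes had 6 of 19 higher at week 24, against 5.96% of all genes, and a median of 0.41. The 4 largest were Creb3l2, a factor of the secretory pathway (0.86 ± 0.20, limma adjusted p = 0.0129), Sox10 (0.75 ± 0.19, limma adjusted p = 0.0189) and Sox9 (0.70 ± 0.21, limma adjusted p = 0.0399), factors of salivary epithelium, and Elf5, an epithelial ETS factor (0.68 ± 0.12, limma adjusted p = 0.00197). At week 16 only Dnajb9, an ER chaperone, passed, and it fell by 0.77 ± 0.14 (limma adjusted p = 0.00361). At week 24 it was among the 6 that rose (0.49 ± 0.14, limma adjusted p = 0.0333). At week 8 none passed, with Creb3l1 at 0.83 ± 0.50 (limma adjusted p = 0.422) and Sox10 at 0.56 ± 0.19 (limma adjusted p = 0.22). Of 21 other secreted products, 2 fell at week 24, Sval2 by 1.40 ± 0.45 (limma adjusted p = 0.0479) and Smr2 by 0.73 ± 0.20 (limma adjusted p = 0.0261). This too was near the 9.45% of all genes, and the list's median was -0.17. Smr3a (2.72 ± 1.97, limma adjusted p = 0.509) and Bpifb1 (2.57 ± 1.72, limma adjusted p = 0.47) had the largest values at week 8, and the lysozymes Lyz2 (-0.89 ± 0.33, limma adjusted p = 0.182) and Lyz1 (-0.78 ± 0.28, limma adjusted p = 0.15) at week 16.

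The week 24 calls were computed again with the RNA quality measure. With the 3′-to-5′ gap as a covariate 0 of the 15 passed and 0.177% of all genes did. Some values were much smaller, as for Sox9 (0.25) and Lrrc8a (0.21). Others lost the call at a value less changed: Elf5 was at 0.43 (limma adjusted p = 0.0901) and Smr2 at -0.58 (limma adjusted p = 0.345), and Dnajb9 was higher than before, at 0.60 (limma adjusted p = 0.136). Without the 3 arrays over 0.6 the 5 lists had 2, 2, 0, 5 and 1 calls, where 4.86% of all genes were called. In controls from week 8 to week 16 the lists had 8, 11, 6, 15 and 0 higher and 1, 0, 3, 1 and 1 lower, where 46.5% of all genes were called and 28.4% called higher. With the covariate they had 0, 1, 0, 4 and 0 higher and none lower, where 4.77% of all genes were called. Dnajb9 at week 16 kept its call in both settings.

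Markers of some other cells were called between treatments too. Of all 12999 genes 0.0692%, 1.88% and 9.45% were called at weeks 8, 16 and 24. Those called higher were 0, 170 and 775 genes, and those called lower 9, 75 and 454. Of 7 B cell markers tested 6 fell at week 24, and their mean level ranged over 5.81 to 7.81 in controls and 4.94 to 5.29 in treated glands. Of 8 T cell markers 6 fell (6.37 to 7.62 in controls, 5.40 to 6.15 treated). Of 8 plasma cell markers 2, 4 and 4 fell at weeks 8, 16 and 24, with mean levels at week 16 of 8.54 to 9.16 in controls and 7.51 to 7.79 in treated glands. None of the B or T cell markers passed at week 8 or 16. Macrophage markers gave 1 of 9 lower at week 24. Of 13 duct and ionocyte markers 4 rose at week 24, Foxi1, Scnn1a, Scnn1g and Slc9a3, with a mean level of 7.81 to 8.64 in controls and 8.39 to 8.81 treated. Of fibroblast markers 1 of 7 fell at week 16 and 2 rose at week 24, and 1 of 9 myoepithelial markers rose at week 24. The counts of 1 in 9 were near the 9.45% of all genes called. A single call in a list of 7 or 9 genes does not show movement of a cell type. All these marker counts come from the fit without the RNA quality measure. With the 3′-to-5′ gap as a covariate 0.177% of all genes were called at week 24, and 21.7% of those calls were higher. The marker lists in that setting are not given here, so their week 24 calls are no firmer than those of the members. Of the 10 granular duct, 4 sublingual, 5 parotid, 3 muscle and 2 adipocyte markers tested none passed in a treatment comparison. The parotid list ranged from 5.50 to 11.3 over the arrays. Adding Amy1 as a covariate left Folr1 at 0.93 (week 16) and 0.49 (week 24) and Bhlha15 at 0.79 (week 24), all called. The part of the infiltrating cells in the member differences was not tested.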

How the data were processed

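Labelled cRNA from whole-gland RNA was measured on Affymetrix Mouse Genome 430 2.0 arrays, 30 in all. The deposited table holds 1 log2 intensity for each of 45101 probe sets, read as log2 from its range of 2.757 to 14.457; the submitters' processing notes name limma, and the sources used here give no summarisation, normalization or scan batch. No values were missing and nothing was renormalized. Probe sets with 1 gene in the platform annotation (34958) were used, the one of highest mean standing for a gene (23 probe sets for the 10 members). Genes above the array median on at least 5 arrays were tested.

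A limma 3.58.1 model (R 4.3.3) with a mean per group gave 9 contrasts, adjusted by Benjamini-Hochberg over 12999 genes and called under 0.05. It was run on simulated data with known shifts and independent noise. The simulation held no RNA quality or tissue differences between groups, so it does not cover them. The number of arrays, 5 per group, limits precision. Labels call replicates biological; if they shared animals, p-values would measure technical spread. Same-numbered arrays did not deviate together more than others. Their median r was -0.0319 over 75 pairs, 18 of them over 0.1. Arrays of other numbers had a median r of 0.00778 over 300 pairs, 78 of them over 0.1. The numbers were therefore not used as pairs in the model, though this check cannot exclude a shared batch behind them.

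Members and lists were chosen with earlier results of these data known. Named were all members, the called list genes (at most 4 by size, otherwise the 2 largest), and the 3 genes most like each member. Alternatives were other normalizations, filters, probe sets, covariates, weights, blocks and left-out arrays.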

Additional observations from a re-analysis of the deposited data

Results flagged for a closer look

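Each of the 60 sets of 5 values (10 genes in 6 groups) was screened for a lowest or highest array set far from the other 4, a gap that chance gives in about 1 in 20 sets, or 5%. There were 4 such values, on 3 arrays, each the lowest of its group. Aqp5 was at 10.889 in control replicate 1 of week 24, with the others at 11.523 to 11.75. Ano1 was at 10.363 in anti-CD40L replicate 3 of week 8, with the others at 10.937 to 11.166, and Lpo was at 11.892 in the same array, with the others at 12.508 to 12.648. Atp1b1 was at 12.915 in anti-CD40L replicate 5 of week 16, with the others at 13.046 to 13.095. In the order named, these 3 arrays had 3′-to-5′ gaps of 0.6095, 0.516 and 0.302, each the largest of its group. The part of RNA quality in these values was not tested.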

How the results depend on the processing

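Each of the 90 member differences was recomputed under 13 settings and without each array. Folr1 at week 16 kept its call in all of them. With trend and robust moderation, with arrays centred on their medians, with the filter at the 70th percentile and with a replicate block no member's call changed; with the replicate block Bhlha15 at week 24 gave adjusted p = 0.0161 and Folr1 0.0419. Percentages in brackets below are the share of all genes called in the same setting and comparison. Quantile normalization gave 1 member called between treatments at week 24 (10.1%) and 0 in treated glands from week 8 to 16 (33.8%). It moved the median of all genes in controls of week 16 against week 8 from 0.0644 to -0.0575, and the share of calls that were higher from 61% to 42% there and from 63.1% to 48.4% for treatment at week 24. No filter gave 1 call in treated glands from week 8 to 16 (26.5%). The median over probe sets gave 0 in controls (12.6%) and 1 in treated glands (20.4%) from week 8 to 24. Fitting only the arrays compared gave 0 for treatment at week 24 (0.992%) and 0 in controls from week 8 to 24 (0.315%). Array weights gave 3 for treatment at week 24 (12.5%), with Ano1 added (0.42, limma adjusted p = 0.0401). They also gave 1 in treated glands from week 8 to 24 (26.9%) and 2 for the change of treatment effect to week 16 (2.02%). Amy1 as a covariate gave 1 in treated glands from week 8 to 16 (20.4%). For the change of treatment effect to week 16 it gave 1 (0.685%), Bhlha15 (-1.01, limma adjusted p = 0.036). The 3′-to-5′ gap as a covariate, alone or with Amy1, gave 0 for treatment at week 24 (0.177% and 0.3%). From week 8 to 16 there were 0 calls in controls (4.77% and 3.99%) and 1 in treated glands (26% and 22.6%). Rab3d turned to -0.0305 in controls with the first, and Rab3d to -0.0698 and Aqp5 to -0.0148 with both. Without the 3 arrays over 0.6, controls from week 8 to 16 had 4 (27.3%). The lowest probe sets of Atp1b1 (-0.397) and Rab3d (-0.183) and the dimmer one of Pip (0.674) had the opposite sign. Leaving out 1 array gave 1 to 4 calls for treatment at week 24, 0 to 4 in controls from week 8 to 24, 1 to 2 in treated glands and 5 to 7 in controls from week 8 to 16. Both settings on arrays over 0.6 and on both covariates were chosen after seeing the data. Beyond the links to the 3′-to-5′ gap, the cause of these changes was not tested.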
